A study of Homo sapiens with 12 samples.

Results

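Wnt signaling genes carried m6A peaks in both the si-NC group and the si-FTO group of K1 papillary thyroid cancer cells, and 29 of 62 were listed in every library. These 62 genes are those that the deposited peak lists annotate with the Wnt signaling pathway, less 6 that carry the TGF-beta pathway as well (CREBBP, CUL1, EP300, MYC, SMAD3 and SMAD4) and less JUN. They are part of 7623 genes with a peak in any list, and of 2388 with any pathway annotation. MeRIP-seq captures RNA fragments with an antibody against m6A, and a peak is a stretch of RNA enriched in that capture (IP) over the uncaptured input. The study made 12 libraries, 3 IP and 3 input libraries from cells treated with a control siRNA (si-NC) and the same numbers from cells treated with siRNA against FTO (si-FTO), an m6A demethylase. All groups share this single cell line. The measurement used here is the peak list of each IP library, whose positions refer to hg19. The sources used here give neither the time after transfection nor which of the FTO siRNAs was used in which library.

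The FTO siRNAs that the study designed are shown because they are the treatment that separates the groups. The sense strands are written 5′ to 3′, in lower case throughout since no part of them is compared.
si-FTO-1: tcaccaaggagactgctattt
si-FTO-2: ctagggttttgcttccagaatt

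In Wnt signaling, a secreted Wnt ligand binds a Frizzled receptor and its LRP coreceptor, and Dishevelled then blocks the destruction complex of APC, Axin and GSK3. Without a ligand this complex phosphorylates β-catenin, which the ubiquitin ligase adaptors β-TrCP then mark for degradation. With a ligand, β-catenin enters the nucleus and acts with LEF/TCF factors on target genes. A planar cell polarity branch through RAC GTPases and JNK kinases and a calcium branch through calcineurin and NFAT factors do not need β-catenin. In the thyroid, activating mutations of the β-catenin gene are known mainly from poorly differentiated and anaplastic cancers.

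The lists held 7921 to 8999 peaks each, and 1 emptied line per list was not analysed here. Their read depth is unknown. The median FDR of a list was 47.45% to 99.58% in si-NC and 41.15% to 47.22% in si-FTO, and peak identifiers ran up to 68972 to 98175 in si-NC and 56265 to 57034 in si-FTO. Calling was therefore unlike between si-NC and si-FTO, and what part this has in the results below was not tested. The FTO mRNA had a peak in all 6 lists, which is no measure of its level, so the knockdown was not checked here. The paper reports a check of the knockdown in K1 cells by qRT-PCR and western blotting. Of the thyroid genes TG, TSHR, PAX8, NKX2-1 and FOXE1, a peak was listed for FOXE1 alone, in all 6 lists, and of the epithelial genes KRT8, KRT18, KRT19, EPCAM and CDH1 for KRT8 alone, in all 6.

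A similar number of Wnt signaling genes had a peak in each group. Replicates 1, 2 and 3 had 43, 47 and 47 such genes in si-NC against 41, 44 and 44 in si-FTO. The means were 45.7 ± 2.31 (SD, n = 3 libraries) and 43.0 ± 1.73 (SD, n = 3), and the ranges overlapped. As a share of the genes in each list they made up 0.796% ± 0.0367 (SD, n = 3) in si-NC and 0.791% ± 0.0138 (SD, n = 3) in si-FTO. The 62 genes had 400 peaks in all, 61 to 71 per list, which merged into 110 regions. A single region was found for 33 genes, and LRP6 had the most, 6. Of the 400 peaks, 69.8% had the same start and end as a peak of the same gene in another list, beside 71.0% of all peaks.

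Of the 62 genes, 46.8% were in all 6 lists, beside 45.6% of genes with a pathway annotation and 49.0% of all genes with a peak. Another 6 genes were in 1 list, 8 in 2, 9 in 3, 7 in 4 and 3 in 5. The plot of lists per gene shows this for the 3 sets.

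**Figure D1:**
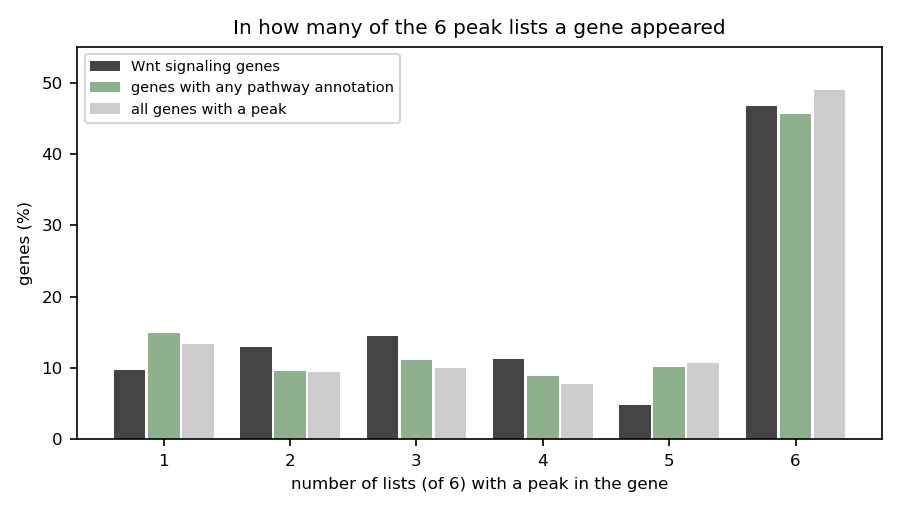
Share of genes (%, vertical axis) by the number of the 6 peak lists in which the gene has a peak (horizontal axis), for 62 Wnt signaling genes, 2388 genes with any pathway annotation and 7623 genes with a peak. In each set the largest bar is at 6 lists, 46.8%, 45.6% and 49.0%.

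The strength of a peak is given in 2 ways. The fold enrichment is the authors' ratio of IP to input for a peak in its own list, and the percentile is the rank of that ratio within the same list, where 100 is the strongest peak. Fold enrichments of different lists are not on a common scale, so groups are compared by percentile. Over the Wnt peaks of a list the median percentile was 50.6 ± 3.83 (SD, n = 3) in si-NC and 49.2 ± 5.92 (SD, n = 3) in si-FTO, close to the 50 of an average peak by construction. The members with the strongest peaks in every list were WNT5B, the planar polarity gene PRICKLE2, the calmodulin kinase gene CAMK2G, FZD6 and CHD8, whose best peak never fell below percentile 92.9, 90.9, 90.3, 87.5 and 85.2.

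**Figure D2:**
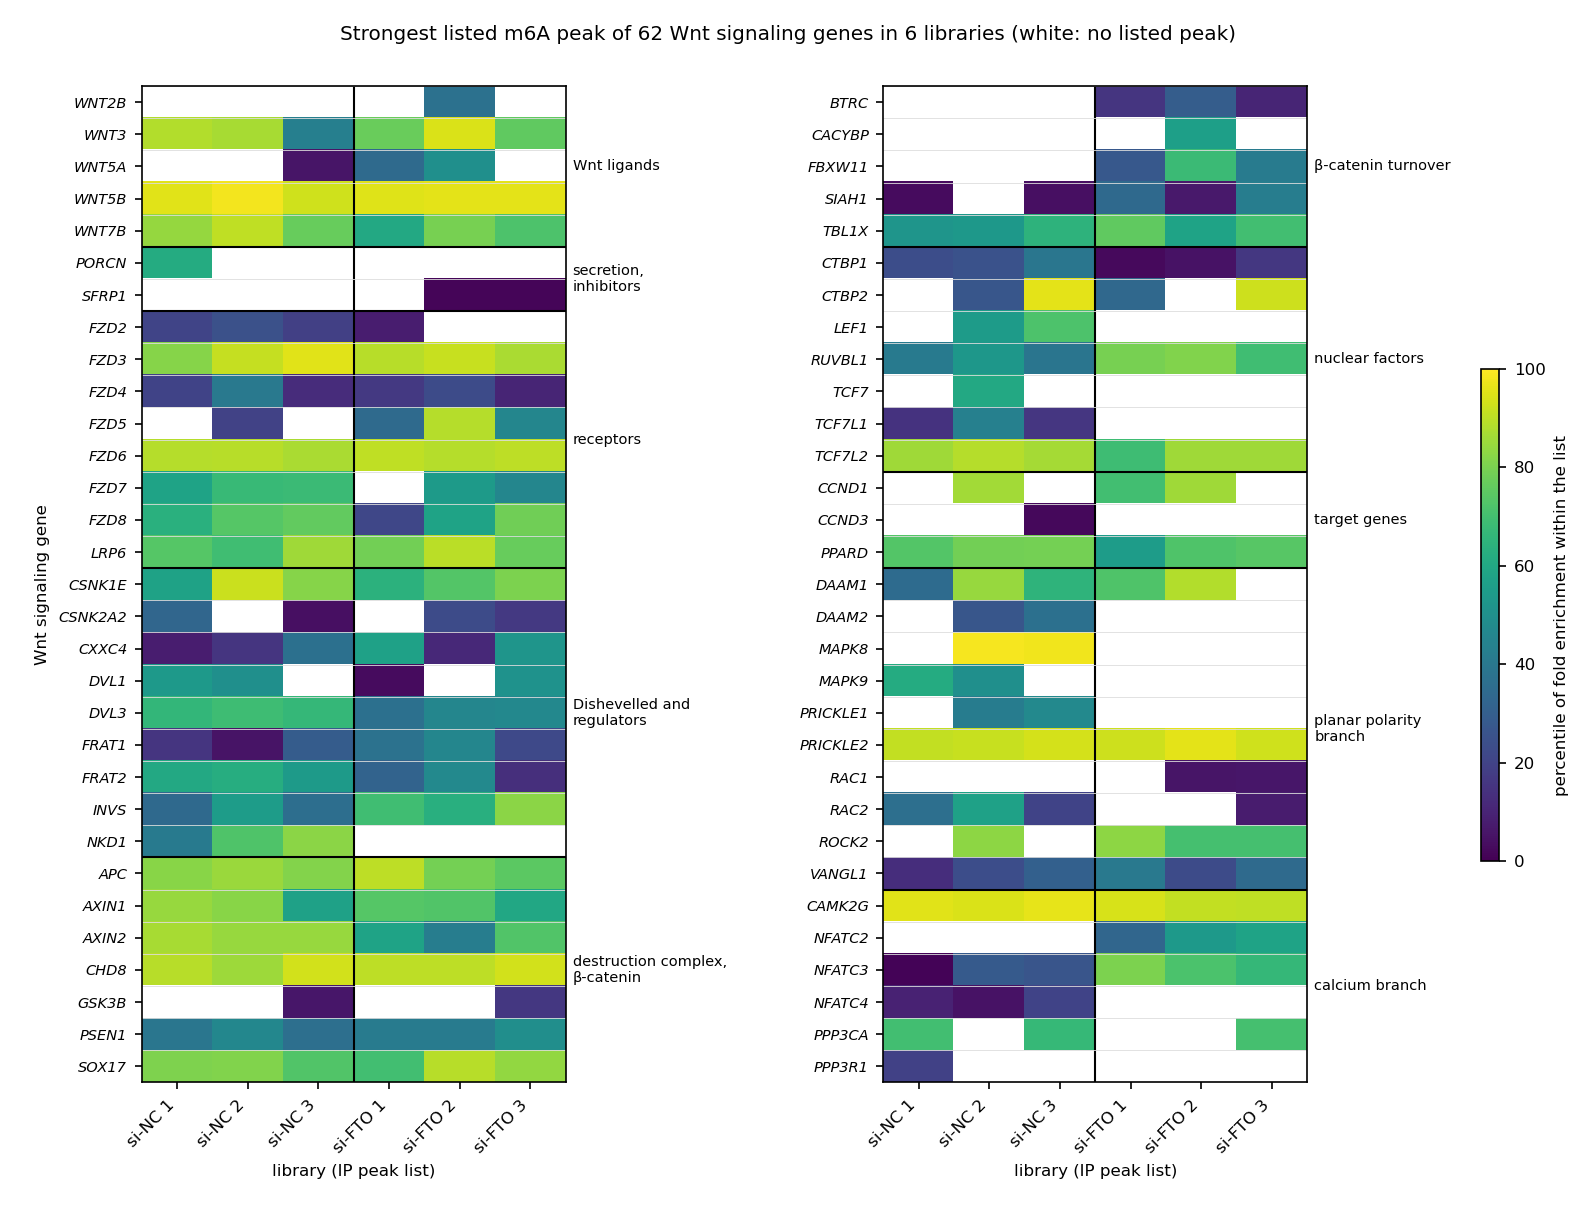
Percentile of fold enrichment of the strongest listed peak (color, 0 to 100) for each of 62 Wnt signaling genes (rows, by role) in 3 si-NC and 3 si-FTO libraries (columns), with white where no peak was listed. BTRC, FBXW11 and NFATC2 are white in all si-NC columns, and NKD1, TCF7L1 and NFATC4 in all si-FTO columns.

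Among the ligands, 5 genes had a peak and WNT3, WNT5B and WNT7B had one in all 6 lists. WNT5B, whose product mostly acts outside the β-catenin branch, was enriched at 2 sites in every list. At the first, on chromosome 12 from 1748850 to 1749142, the fold enrichments of replicates 1, 2 and 3 were 20.1, 28.3 and 16.1 in si-NC against 20.1, 20.5 and 21.1 in si-FTO, so the groups overlapped. WNT3, a ligand of the β-catenin branch, was at percentiles 88.6, 87.0 and 43.1 in si-NC against 77.0, 94.5 and 75.6 in si-FTO, also overlapping. WNT5A was in si-NC replicate 3 and si-FTO replicates 1 and 2, at different sites in the groups, and WNT2B in si-FTO replicate 2 alone. PORCN, the acyltransferase needed to secrete Wnts, had a peak in si-NC replicate 1 alone. SFRP1, a secreted Wnt antagonist, was listed in si-FTO replicates 2 and 3 at percentiles 1.44 and 1.32. By fold enrichment these were among the weakest peaks of those lists. Ranked by the score, a measure based on the p-value and described below, the same peaks were at percentiles 30.3 and 61.1.

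Among the receptors, 8 had a peak, and LRP6, FZD3, FZD4, FZD6 and FZD8 had one in all 6 lists. LRP6, the coreceptor that is phosphorylated on Wnt binding, had 30 of its 34 peaks in 5 regions that were shared by all lists. One of the 5 was stronger in every si-FTO library and is described below. FZD6 was near percentile 90 in every list, but not at 1 place. The 3 si-NC libraries and si-FTO replicate 2 had it on chromosome 8 from 104341883 to 104342293, and si-FTO replicates 1 and 3 from 104343569 to 104345094. FZD7 was missing in si-FTO replicate 1 alone, FZD2 was in the 3 si-NC libraries and si-FTO replicate 1, and FZD5 in the 3 si-FTO libraries and si-NC replicate 2. No peak analysed here was listed under LRP5, FZD1, FZD9 or FZD10.

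In the destruction complex, APC had the longest Wnt interval, of 7231 to 7452 bp, on chromosome 5 from 112173250. Its fold enrichments were 11.62, 12.54 and 11.14 in si-NC against 15.17, 10.6 and 9.97 in si-FTO, with no separation of the groups. AXIN1, the scaffold of the complex, had 2 regions in all 6 lists, and in both the groups overlapped. GSK3B, the kinase of the complex, was listed in replicate 3 of each group, at percentiles 6.10 and 16.1. DVL1 was in 2 libraries of each group and DVL3 in all 6. No peak analysed here was listed under CTNNB1, which encodes β-catenin, under DVL2 or under CSNK1A1.

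By gene name, 3 Wnt signaling genes were listed in each of the 3 si-FTO libraries without any si-NC peak. They were BTRC and FBXW11, which encode the 2 β-TrCP adaptors that recognise phosphorylated β-catenin, and NFATC2, a calcineurin-dependent transcription factor gene of the calcium branch. In the opposite direction were NKD1, a Dishevelled-binding feedback inhibitor, TCF7L1, a TCF that mostly represses, and NFATC4, another NFAT gene. Each count of 3 is 4.84% of the 62 genes. Of all genes with a peak, 2.28% had the si-FTO pattern and 2.75% the si-NC pattern, and of the genes with a pathway annotation 2.68% and 2.85%. With 3 libraries against 3, a single gene has a two-sided exact permutation p of 0.1 at best, so this test cannot reach 0.05 for any gene. Whether the libraries are separate cultures is not stated, so the spread between them may be technical.

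The BTRC peak lay on chromosome 10 from 103312912 to at most 103314626, with the same start in the 3 si-FTO lists. Its fold enrichments were 4.60, 5.43 and 4.17 in si-FTO replicates 1, 2 and 3, at percentiles 15.6, 29.4 and 10.4. These are weak peaks of their lists, and the score, which is minus 10 times the log10 of the p-value, was 60.35, 67.75 and 51.04, where the smallest score of any list was 50 to 50.08. FBXW11 was listed on chromosome 5 from 171433462 to at most 171433877, with fold enrichments of 5.36, 8.74 and 6.26 and scores of 89.4, 54.0 and 89.72. Both genes thus lay close to the calling limit in at least 1 si-FTO library. When every list was shortened to its 7921 best-scoring peaks, BTRC and FBXW11 no longer had the pattern, and among the upper 75 percent of fold enrichment BTRC did not.

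NFATC2 had 1 interval common to the 3 si-FTO lists, on chromosome 20 from 50048604 to 50049293. The fold enrichments there were 5.69, 7.17 and 7.74, at percentiles 32.9, 53.8 and 58.2. This gene kept the pattern under every alternative tried. NFATC4 was listed on chromosome 14 from 24838359 to 24839800 in the 3 si-NC libraries, with fold enrichments of 4.27, 3.79 and 4.98. It stood low in its lists, at percentiles 9.50, 4.74 and 20.1, and was not among the upper 75 percent of fold enrichment in any of them. NFATC3, another NFAT gene, was in all 6 lists, and its region on chromosome 16 from 68224671 to 68226049 was in 5 of them. There the fold enrichment was 5.6 and 5.38 in si-NC replicates 2 and 3 against 11.1, 9.21 and 8.68 in si-FTO, so that each si-FTO library stood higher, at percentiles 66.5 to 80.4 against 26.4 and 28.5. The si-NC replicate 1 list had its NFATC3 peak elsewhere, at percentile 1.13.

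NKD1 was listed on chromosome 16 from 50667103 to at most 50668075 in the 3 si-NC libraries. Its fold enrichments were 6.49, 9.73 and 11.34, at percentiles 41.2, 72.6 and 82.5, with a score of 56.17 in replicate 1, and it lost the pattern in lists of equal length. TCF7L1 was listed on chromosome 2 from 85536152 to at most 85537511, with fold enrichments of 4.69, 6.61 and 4.71 in si-NC, and lost the pattern in the upper 75 percent of fold enrichment. Of the other LEF/TCF genes, chosen for this comparison after their values were seen, LEF1 was listed in si-NC replicates 2 and 3, TCF7 in si-NC replicate 2, and neither in a si-FTO library. TCF7L2 was in all 6 lists at 2 sites. Its stronger site, on chromosome 10 from 114925314 to 114927349, was at percentiles 85.8, 88.8 and 86.7 in si-NC against 69.0, 85.9 and 85.7 in si-FTO, which overlap narrowly. No peak of the other group under any gene name lay within 5000 bp of the 6 one-group regions of these genes.

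Counted by region, 5 of 110 (4.55%) were found in every si-FTO library but no si-NC library, beside 2.92% of all 12995 regions, and 3 (2.73%) had the opposite pattern, beside 3.2%. The 5 are those of BTRC, FBXW11 and NFATC2 with 1 region each of ROCK2 and FZD3, genes that also had peaks in si-NC elsewhere. A further ROCK2 region, from 11332577 to 11332838, was listed in si-FTO replicates 1 and 3 alone. ROCK2 encodes a serine/threonine kinase of the planar polarity branch. Its interval on chromosome 2 from 11354966 to 11355212 was identical in the 3 si-FTO lists, with fold enrichments of 10.05, 9.01 and 9.29 at percentiles 75.2, 70.5 and 70.4. The scores of 1685.2, 1151.13 and 1465.75 were far above the calling limit, which sets this region apart from the other 7. The FDR of these ROCK2 peaks was nevertheless 22.51%, 30.75% and 28.56%. Of all 50501 peaks in the 6 lists, 3 had an FDR of 5% or less. A ROCK2 peak of similar fold enrichment, 11.94, was listed in si-NC replicate 2 at a site from 11321778 to 11323566. Its score was only 62.25, and si-FTO replicate 1 had the same site at fold enrichment 11.82 and score 50.79. FZD3, a receptor gene of the planar polarity branch, had its si-FTO region on chromosome 8 from 28413255 to 28413488, at fold enrichments of 5.71, 5.46 and 6.15. A second FZD3 region, from 28360187 to 28360719, was listed in the 3 si-NC libraries and si-FTO replicate 1, and the strongest was in all 6 lists.

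**Figure D3:**
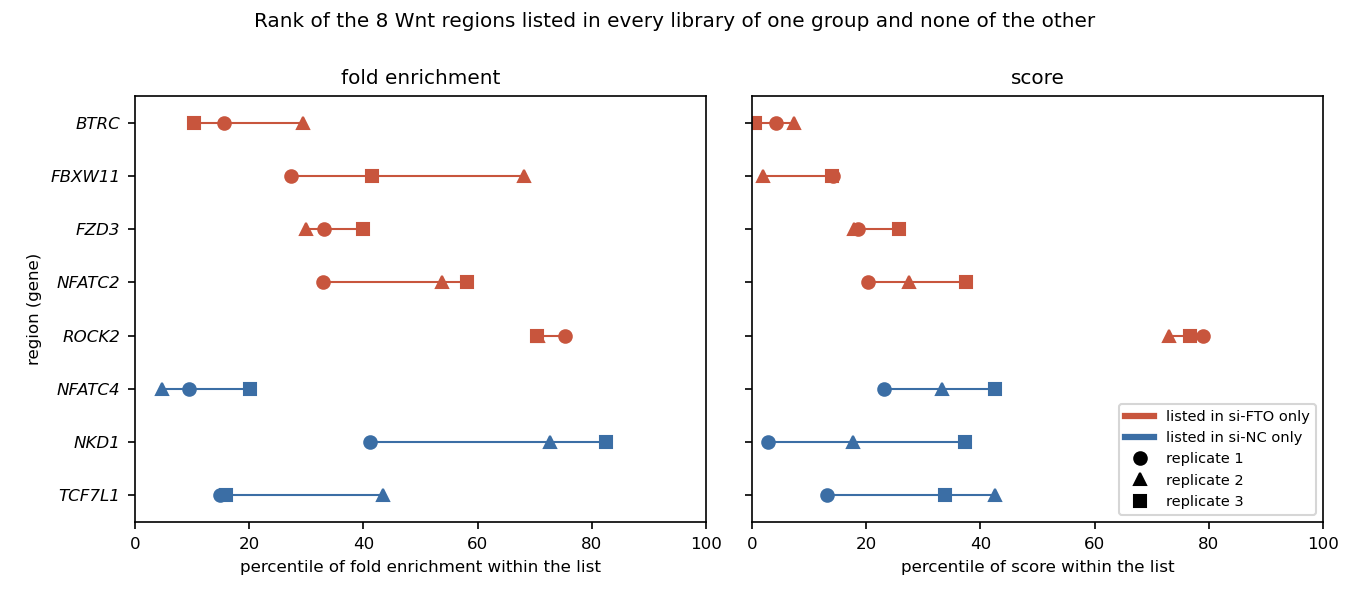
Percentile within the list of fold enrichment (left) and of the score (right), each on a horizontal axis of 0 to 100, for the 8 Wnt regions (rows) listed in every library of a single group, with a point per library and a line over their range. ROCK2 is at score percentiles 73.0 to 79.0, and BTRC at 0.564 to 7.32.

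A peak was listed in all 6 libraries for 35 Wnt regions, and these allow a comparison of strength. The percentile was higher in every si-FTO than in every si-NC library for 6 of the 35 (17.1%), beside 16.9% of 4737 such regions over all genes, and lower for 6 (17.1%), beside 14.6%. One of the lower regions is listed mainly under MOCS1, a gene outside the pathway, and with peaks under Wnt genes only the counts were 6 and 5 of 34 (17.6% and 14.7%). Neither share stands far from that of all genes. Over these 34 regions the mean si-FTO minus si-NC difference ranged from -28.3 to 37.1 percentile points, with a median of 2.71 beside 0.0806 over all 4737. The same 12 regions were apart when the fold enrichments as deposited were compared in place of the percentiles. Each such region has an exact permutation p of 0.1, the smallest possible.

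RUVBL1, CHD8, INVS, LRP6, TCF7L2 and WNT5B each had 1 region that was higher in every si-FTO library. RUVBL1 encodes an ATPase that binds β-catenin, and its interval on chromosome 3 from 127842427 to 127842671 had fold enrichments of 6.46, 6.27 and 6.18 in si-NC against 10.88, 11.05 and 9.13 in si-FTO. The percentiles were 40.8, 38.6 and 38.8 in si-NC against 79.3, 80.9 and 69.2 in si-FTO, with the si-NC libraries close together and every si-FTO library above them. CHD8, a chromatin remodeller that represses β-catenin targets, had fold enrichments of 7.07, 8.29 and 6.66 in si-NC against 15.12, 14.53 and 11.11 in si-FTO on chromosome 14 from 21898960 to 21900017. Its neighboring region from 21896028 to 21896413, at fold enrichments of 12.63 to 17.54, was in the 3 si-NC libraries and, of the si-FTO libraries, in replicate 3 alone, where it was at percentile 93.2, within the si-NC range of 85.2 to 93.3.

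INVS encodes inversin, which lowers Dishevelled in the cytoplasm. Its region on chromosome 9 from 103054608 to 103055325 had fold enrichments of 5.95, 7.58 and 4.72 in si-NC against 9.06, 8.15 and 11.85 in si-FTO. LRP6 had its higher region on chromosome 12 from 12419615 to 12419946, at percentiles 41.4, 38.3 and 18.3 in si-NC against 62.5, 89.7 and 47.7 in si-FTO, while its other 4 shared regions overlapped between the groups. For TCF7L2 the weaker site, on chromosome 10 from 114710009 to 114710704, ranked higher in si-FTO, with percentiles of 28.8, 19.9 and 35.8 in si-NC against 43.8, 61.8 and 58.5 in si-FTO. The second WNT5B site differed by only 3.92 percentile points between the group means and by 0.514 between the nearest libraries.

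Lower in every si-FTO library were 1 region each of AXIN2, CTBP1, DVL3, FRAT2 and CAMK2G, and 1 region that DAAM2 shares with MOCS1. AXIN2, a target gene and feedback inhibitor of the pathway, had fold enrichments of 13.23, 12.48 and 11.97 in si-NC against 7.61, 6.35 and 9.68 in si-FTO on chromosome 17 from 63533442 to 63533953. The si-NC libraries stood together, at percentiles 84.7 to 86.9, and the si-FTO libraries were spread from 42.4 to 72.9. A second AXIN2 region, from 63553924 to 63554854, had no call, with fold enrichments of 3.57 and 4.03 in si-NC replicates 1 and 3, no peak in si-NC replicate 2, and 5.98, 5.85 and 5.12 in si-FTO. CTBP1, a corepressor of TCF factors, had fold enrichments of 5.29, 5.35 and 6.22 in si-NC against 3.38, 3.70 and 4.61 in si-FTO, on chromosome 4 from 1228475 to 1230344.

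DVL3, a Dishevelled, had fold enrichments of 7.72, 9.15 and 8.64 in si-NC against 5.95, 6.60 and 6.68 in si-FTO on chromosome 3 from 183888107 to 183891314. Its other region, from 183873284 to 183873584, was in 5 lists, at percentiles 66.3, 64.5 and 61.4 in si-NC, 7.81 and 21.1 in si-FTO replicates 1 and 2, and none in replicate 3. FRAT2, whose product binds GSK3, was at percentiles 60.4, 62.2 and 54.6 in si-NC against 31.7, 47.1 and 13.6 in si-FTO. Its relative FRAT1 ran the other way in the group means, 16.7 in si-NC against 35.2 in si-FTO, but its groups overlapped. The CAMK2G difference was small, -3.71 percentile points between group means, with the nearest libraries 0.222 apart. In the shared region on chromosome 6 from 39870434 to 39874893, the peaks of si-NC replicate 1 and of all si-FTO libraries are listed under MOCS1, a gene outside the Wnt pathway, and peaks under DAAM2 were in si-NC replicates 2 and 3. The strongest peak of that region in each list was under MOCS1, so this difference is not one of DAAM2.

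**Figure D4:**
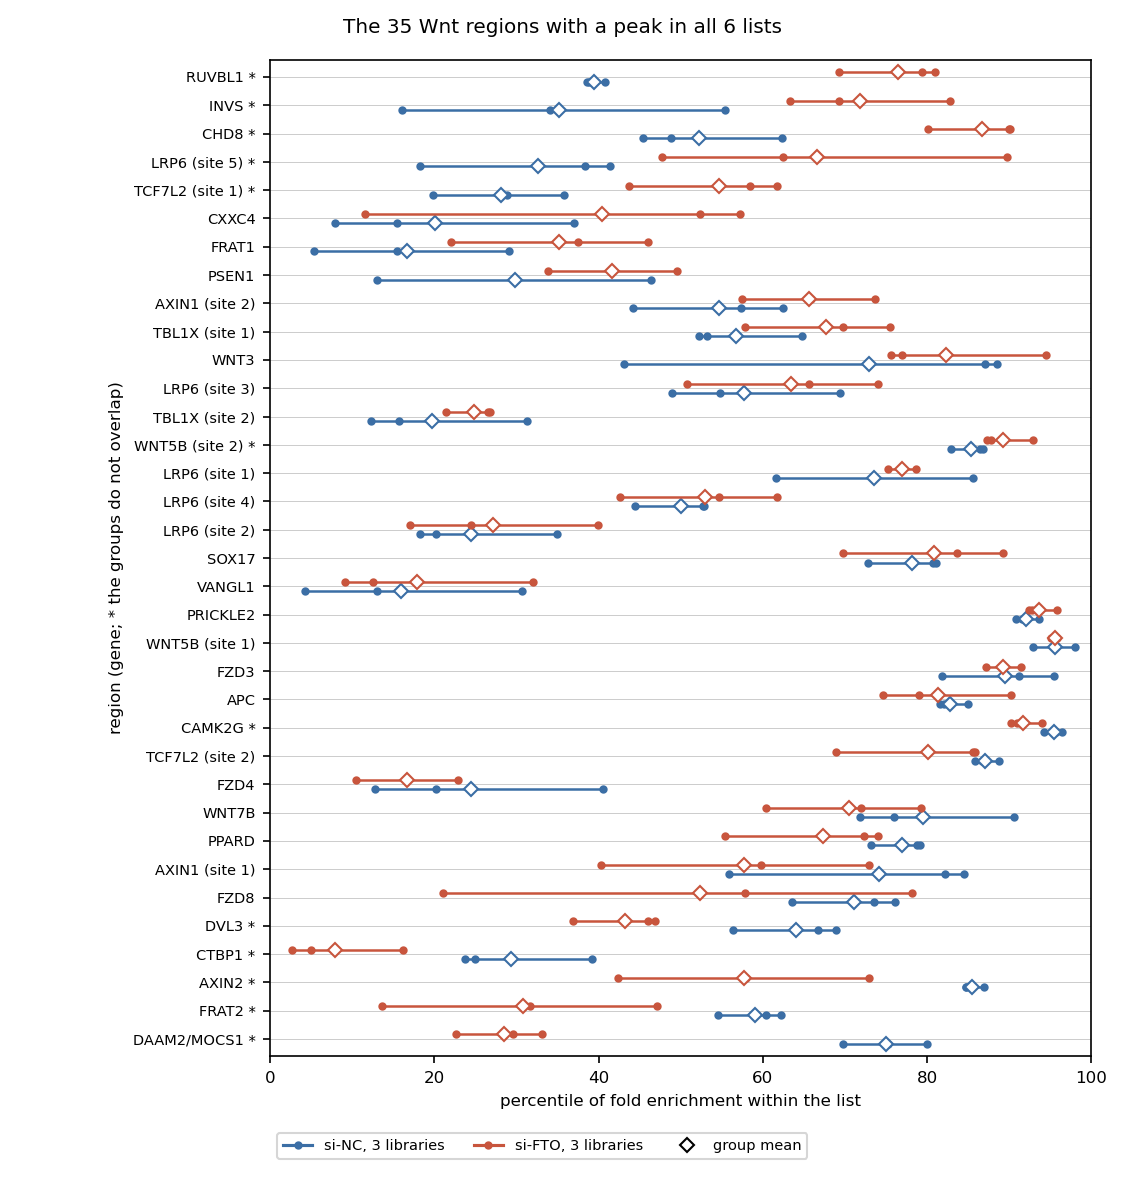
Percentile of fold enrichment within the list (horizontal axis, 0 to 100) for the 35 Wnt regions with a peak in all 6 lists (rows, ordered by the si-FTO minus si-NC difference, several shared sites of a gene numbered along the chromosome), with a point per library, a line over the range of each group and a diamond at its mean. A star marks the 12 regions whose groups do not overlap, from RUVBL1 with 37.1 points higher in si-FTO to DAAM2/MOCS1, which differed by -46.5 points.

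Ranked by score instead of fold enrichment, 4 of the 6 higher regions (RUVBL1, CHD8, INVS and LRP6) were still apart in the same direction. Of the 6 lower ones, AXIN2, CTBP1 and DAAM2/MOCS1 were, and CAMK2G was only through tied scores. The score is the same, 3100, for 968 to 1031 peaks of each list, and those of CAMK2G and of both shared WNT5B sites are among them in all 6 lists. For these tied peaks the rank follows the number of ties in a list, and the second WNT5B site then fell on the lower side. TCF7L2, DVL3 and FRAT2 overlapped between the groups by score.

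The remaining genes were mostly listed in part of the libraries of a group. Of the other genes of β-catenin turnover, TBL1X was in all 6 lists, SIAH1 in 5 and CACYBP in si-FTO replicate 2 alone. Among target genes, PPARD was in all 6 lists, and CCND1, the cyclin D1 gene, was listed in si-NC replicate 2 and si-FTO replicates 1 and 2 at the same site. In the planar polarity branch 8 of 10 genes were in 1 to 5 lists and 2 in all 6. Of the 62 genes 46.8% were in all 6 lists, and of all genes with a peak 49.0%. ROCK1, of the same branch but without the Wnt tag, was in all 6, and the count for the branch was not tested. The JNK kinase gene MAPK8 was listed in si-NC replicates 2 and 3 and in no other list. Its fold enrichments were 31.3, the highest of any Wnt peak, and 26.0, with scores of 2173.75 in replicate 2 but only 95.31 in replicate 3. MAPK9, PRICKLE1 and DAAM2 were likewise in 2 si-NC libraries only, and RAC1, a small GTPase gene, in si-FTO replicates 2 and 3 at percentiles 5.62 and 6.01. In the calcium branch the calcineurin gene PPP3CA was in si-NC replicates 1 and 3 and si-FTO replicate 3.

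The annotation does not cover every Wnt gene. Of 77 genes on lists of pathway roles that had a peak, 12 carry no Wnt tag in these lists, among them PRKACA, ROCK1, PLCB1, PLCB3 and NFAT5, each with a peak in all 6 libraries. A further list of 41 genes known from Wnt signaling outside the annotated pathway had 20 with a peak. Of these, 14 were in all 6 lists, beside 49.0% of all genes with a peak. Among the 14 were the ubiquitin ligase gene ZNRF3, the β-catenin coactivators BCL9 and BCL9L, the receptor kinase gene ROR1 and the destruction complex gene AMER1. By the same presence rule, the number of one-group genes among these 20 was 0 in each direction, a count with no test. Over all genes the shares were 2.28% for si-FTO and 2.75% for si-NC, so few would be looked for among 20.

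The median length of Wnt peaks was 718, 950 and 902 bp in si-NC against 690, 545.5 and 690 bp in si-FTO, with no overlap between the groups. Over all peaks the medians were 667 to 694 bp and 656 to 684 bp. In the 35 shared regions the Wnt medians were 1058 to 1113 bp in si-NC and 1086 to 1187 bp in si-FTO. The difference thus lay in peaks outside the shared regions, with medians of 533 to 809 bp in si-NC and 390 to 415 bp in si-FTO. Which regions were listed there differed between libraries, so these medians do not show that a given peak was shorter. The difference was not tested.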

How the data were processed

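RNA of K1 cells was depleted of rRNA, m6A-containing fragments were captured with a GenSeq kit, and libraries were sequenced as 150 bp paired-end reads. The submitters' processing notes name CASAVA 1.8, BWA and hg19, and the peak identifiers name MACS. Its settings were stated in no source used here. The values that the authors deposited per peak are a score (minus 10 times the log10 of the p-value), a fold enrichment which is a ratio of IP to input within 1 list, an FDR in percent and a length. Replicates were not pooled. Read counts were not used here, so depth is unknown, and peaks below the calling limit are not listed.

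Lists were read with Python 3.11.15 and pandas 2.3.3, and starts were counted from 1. Peaks of the 6 lists that overlapped by 1 bp or more were joined into regions. Percentiles were ranked within each list over all peaks. Presence and non-overlap rules were run on the whole table and tested on simulated lists. Genes were named if they belong to the core of the canonical branch, had a one-group pattern, ranked highest in all lists, did not overlap between groups or led their role list, and some further ones were named after their values were seen. INVS was moved to another role list after the files were read. The members, lists and rules were chosen with earlier results of these data known. Alternatives were leaving out each library, the upper 75 percent of fold enrichment, lists of equal length, 2 of 3 libraries, 100 bp of overlap, the score or the fold enrichment in place of the percentile, and the replicate number as a block. The place of peaks within transcripts and the m6A motif were not analysed here, since no genome of this build was used.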

Additional observations from a re-analysis of the deposited data

How the results depend on the processing

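Of 68 values under the alternatives, 50 stayed within 1.5 times the count or within 1 SD, and 18 counts of genes or regions did not. With 2 of 3 libraries against none, a looser rule, 5 genes (8.06%) had the si-FTO pattern, beside 4.91% of all genes. The si-NC pattern was found for 8 genes (12.9%), beside 6.53%. By region these were 12 (10.9%) for si-FTO, beside 7.06% of all regions, and 10 (9.09%) for si-NC, beside 7.99%. In the upper 75 percent of fold enrichment 1 gene (1.61%), NKD1, kept the si-NC pattern, beside 3.54% of all genes. There 3 genes (4.84%), FBXW11, FZD5 and NFATC2, had the si-FTO pattern, beside 2.29%. By score, 10 shared regions (28.6%) were higher in every si-FTO library, beside 15% of all, and 9 (25.7%) lower, beside 27.4%. Among the lower ones, CAMK2G, both shared WNT5B sites and a WNT7B site have the tied score of 3100 in all 6 lists. Their call was fixed by the number of ties per list, and the share of all regions includes such ties. What else had a part in these counts was not tested. The restriction to peaks listed under Wnt genes was chosen after seeing the data.

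With 1 library left out, fewer libraries are required, and the shares over all genes and regions rose as well. The 3 si-FTO genes became 3 to 5 (5 without si-NC replicate 2 or si-FTO replicate 1), the 3 si-NC genes 3 to 7 (7 without si-NC replicate 1), the 5 si-FTO regions 5 to 8 (8 without si-FTO replicate 1 or 2) and the 3 si-NC regions 4 to 6 (5 or 6 without any one library but si-FTO replicate 2). Of the Wnt genes these were 4.84% to 8.06% for si-FTO and 4.84% to 11.3% for si-NC, beside 2.99% to 3.35% and 3.76% to 4.39% of all genes. Of the Wnt regions they were 4.63% to 7.62% for si-FTO and 3.81% to 5.66% for si-NC, beside 3.84% to 4.45% and 4.15% to 5.32% of all regions. The 6 higher regions became 8 to 10 (10 without si-NC replicate 3), or 21.6% to 27.8%, beside 20.6% to 22.4% of all. The 6 lower ones became 5 to 10 (10 without si-NC replicate 1), or 13.9% to 26.3%, beside 18.2% to 20.3% of all. The difference of -2.67 members per library ranged from -4.0 to -1.67.

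Whether the replicate numbers pair the libraries is not stated. The deviations of same-numbered libraries correlated at 0.0302, 0.0658 and -0.0614 over 4737 regions. Those of libraries with different numbers correlated at -0.105 to 0.0841, so these values cannot decide whether the libraries were paired. With the replicate number as a block, 8 shared regions (22.9%) were higher and 9 (25.7%) lower in all 3 pairs, beside 24.7% and 22.2% of all. Depth could not be weighed, since the lists hold no reads.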
